A study of Mus musculus with 56 samples.

Results

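Expression of 10 genes for calcium-dependent, membrane-associated and secreted proteins was followed in mouse CD4 T cells: the annexin genes Anxa1, Anxa2, Anxa5 and Anxa6, the galectin genes Lgals1 and Lgals3, the S100 genes S100a4, S100a6 and S100a10, and Capg, which encodes an actin filament capping protein. The 10 members were taken by symbol from 19791 gene symbols in the count table of experiment 1 and 24421 in that of experiment 2, and each symbol stood once in each table. The set was selected on measured values: Anxa2, Lgals1 and Capg had higher levels late in the activation of unsorted cells, and that time course is described here without a test. All cells came from the spleen of C57BL/6 mice, and cultures were activated with beads carrying antibodies to CD3 and CD28, with no cytokine added. In experiment 1 (18 libraries, 3 per group) the groups were unactivated naive cells (CD4posCD44negCD62Lpos) and unactivated mature cells (CD4posCD44posCD62Lneg), both obtained by magnetic (MACS) enrichment, and activated cells sorted at 48 or 72 h as CD4posCD62Lpos or CD4posCD62Lneg from cultures started at 250000 cells per ml. In experiment 2 (38 libraries) the groups were sorted naive cells of the same phenotype, CD4pos cells sorted at 18, 30, 48 or 72 h from cultures started at a high (1000000 cells per ml) or a low (62500 cells per ml) concentration, and cells sorted at 48 or 72 h as CD4posCD62LposCD44pos or CD4posCD62LnegCD44pos from cultures started at 250000 cells per ml. CD62L is the lymph node homing receptor that T cells shed and silence upon activation, and CD44 is an adhesion receptor that they raise. Groups of experiment 2 had 3 libraries each, and the low concentration at 72 h had 2. The sorted activated cells are called CD62L positive and CD62L negative below, and the CD4pos cells of the concentration series are called unsorted, since no CD62L or CD44 gate was set for them.

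Annexins bind negatively charged phospholipids in a calcium-dependent manner and organise membrane and cortical actin. Annexin A2 forms a heterotetramer with a dimer of S100A10 that links the plasma membrane to actin and anchors the giant scaffold protein AHNAK, and S100 proteins in general are small EF-hand calcium sensors that act by binding other proteins. Galectins bind beta-galactosides on glycoproteins. Galectin-1 and galectin-3 are known in T cells for effects on survival and on receptor clustering at the surface, and several of these genes are familiar as part of the expression programme of effector and memory T cells.

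Promoter windows of 300 bases around the start site, from RefSeq with build GRCm38.p6, were found for 7 of the 10 members, namely Anxa1, Anxa2, Anxa5, Lgals3, S100a4, S100a6 and Capg. The 2 windows printed belong to the members that differed most between the starting concentrations, in opposite directions: Anxa2 at chr9:69453433-69453732 on the plus strand, and Lgals3 at chr14:47373610-47373909 on the plus strand. Capitals mark matches on either strand of ACGTG, the core bound by hypoxia-inducible factors, of TGANTCA, the AP-1 site, and of CACCC, a core bound by Kruppel-like factors.
Anxa2: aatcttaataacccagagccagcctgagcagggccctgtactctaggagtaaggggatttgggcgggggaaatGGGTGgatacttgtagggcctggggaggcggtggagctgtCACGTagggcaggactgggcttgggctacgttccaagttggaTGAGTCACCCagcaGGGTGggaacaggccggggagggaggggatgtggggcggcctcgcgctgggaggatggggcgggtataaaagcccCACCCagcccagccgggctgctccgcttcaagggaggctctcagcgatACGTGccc
Lgals3: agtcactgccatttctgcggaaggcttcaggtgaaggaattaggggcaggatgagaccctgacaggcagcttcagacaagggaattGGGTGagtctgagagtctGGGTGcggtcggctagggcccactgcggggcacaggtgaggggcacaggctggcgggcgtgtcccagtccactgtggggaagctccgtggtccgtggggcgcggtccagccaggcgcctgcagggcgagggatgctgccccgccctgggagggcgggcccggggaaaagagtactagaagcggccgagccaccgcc
The Anxa2 window held 2 matches of ACGTG, at -137 and 43 from the start site. It also held 1 of TGANTCA at -95, which overlaps a CACCC match at -90, and 3 other CACCC matches at -177, -81 and -6. In the Lgals3 window only CACCC was matched, at -164 and -146. Over all 32851 windows of the table, 19.6% held ACGTG, 7.81% held TGANTCA and 57.5% held CACCC, and of the 7 member windows 3, 1 and 5 held them. These matches describe letters in a window and were not tested against expression. S100a4 and S100a6 are neighbours on mouse chromosome 3 with S100a5 between them, and S100a10 lies on the same chromosome next to S100a11.

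The smallest library of experiment 1 held 58750 counts and the largest 1738555, while those of experiment 2 held between 587118 and 3359875. Levels are given as CPM, counts scaled to library size with trimmed mean of M values (TMM) factors within each table. The tables were normalised apart, so levels are not set across experiments, and CPM is not set between genes. All 10 members passed the filter on low counts in experiment 1 and 9 of 10 in experiment 2, where Anxa1 had 55 counts over all libraries. Counts in experiment 1 were also few for Anxa1 (98 in all libraries together), S100a6 (117), Lgals3 (149), S100a4 (257) and Lgals1 (436). A difference was called at an adjusted p under 0.05 in edgeR's quasi-likelihood test, adjusted by Benjamini-Hochberg over all genes tested in the table, and values after ± in log2 differences are standard errors. The labels do not say that libraries of a group came from separate mice or cultures, and the p-values therefore speak only to variation among libraries, which may be technical. T cell markers (Cd3d, Cd3e, Cd3g, Cd4, Cd2, Cd5, Lck and Thy1) had counts in every group, apart from Cd2 in the mature cells of experiment 1. In bulk RNA, fewer expressing cells and less RNA per cell cannot be told apart.

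In the unsorted cells of experiment 2, all 9 tested members had higher mean levels at 72 than at 18 h, the contrast used to pick the set, in which 59.9% of all genes were called. They did so along different courses. Lgals1 was at 229, 361 and 359 CPM in the naive libraries, at 67.1, 38.0 and 56.8 at 18 h and high concentration, and at 1963, 1662 and 1723 at 72 h. The 18 h libraries thus lay below the naive ones and the 72 h libraries far above both. Anxa5 and Anxa6 showed the same dip with a smaller climb: Anxa6, whose product takes part in endosome traffic, stood at 468, 428 and 424 CPM in naive cells, 74.5, 85.0 and 73.3 at 18 h and 363, 286 and 402 at 72 h at the high concentration. The 72 h libraries lay below the naive ones at the high concentration, whereas at the low concentration the 2 libraries at 72 h were at 575 and 495.

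S100a6 and S100a4 were near or at 0 to begin with. S100a6 (calcyclin, a calcium sensor of the EF-hand type) had no count in any naive library, which allows up to 0.627 CPM over the group. It stood at 3.73, 1.49 and 5.49 CPM at 18 h, 22.3, 19.1 and 11.6 at 30 h, 17.6, 20.0 and 19.6 at 48 h and 82.9, 93.8 and 98.0 at 72 h at the high concentration. S100a4, a sensor known for binding non-muscle myosin, appeared as a step between 18 and 30 h: 1 count in the 6 libraries at 18 h against 125 in the 6 at 30 h, a ratio of CPM of 63.6 (exact 95% interval of counting error 11.2 to 2531). All 6 libraries at 18 h carried the number 1 at the end of their titles and all 6 at 30 h the number 2. The labels do not explain this number, and in this step time and number cannot be told apart. It did not climb further at the high concentration, where the 72 h libraries were at 3.91, 1.72 and 5.55 CPM against 15.8, 4.38 and 10.8 at 30 h. Averaged over both concentrations, the fitted log2 difference of 72 against 18 h was 4.16 for Anxa2, 5.00 for Lgals1 and 1.74 for Anxa5, the smallest of the 9, against a median of 0.03 over all genes. Anxa1 stayed between 0 and 6.72 CPM in every library of experiment 2.

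**Figure D1:**
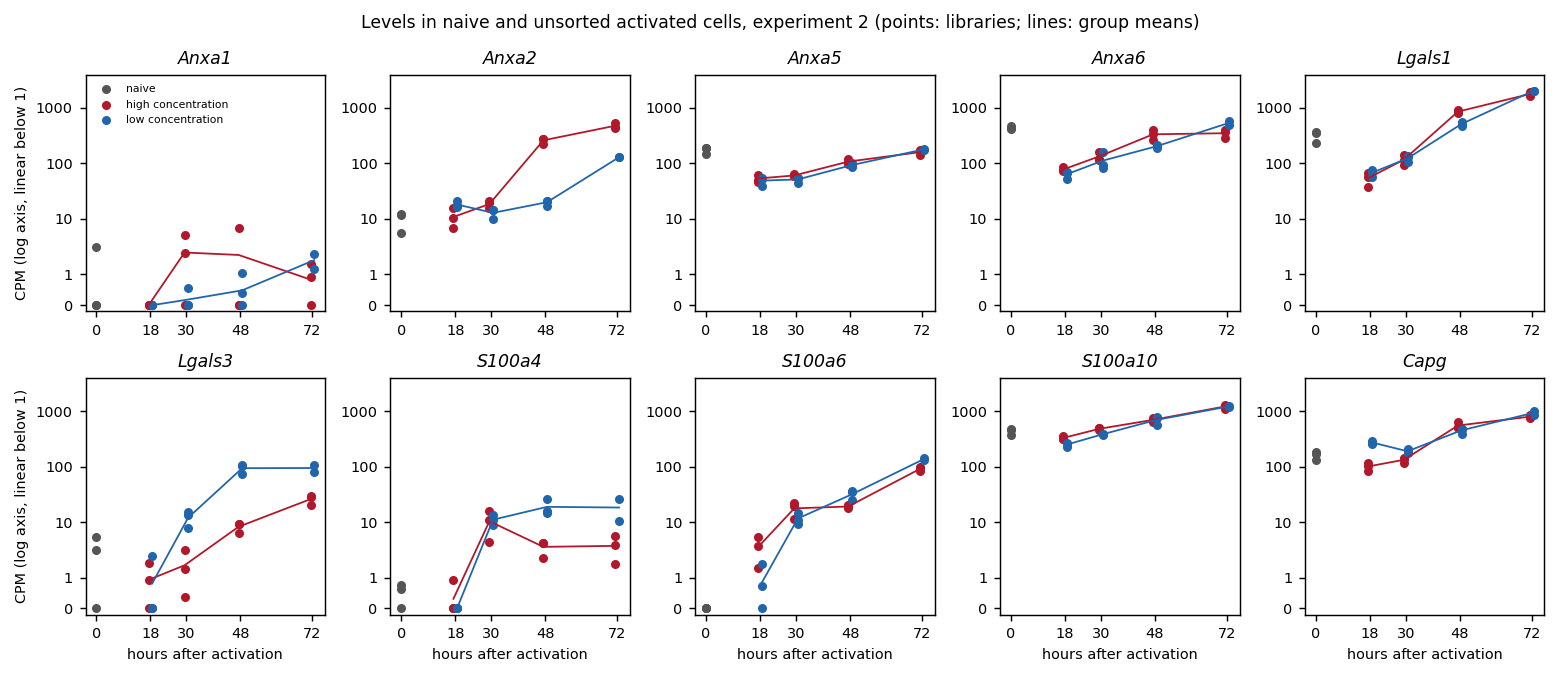
CPM of each member (log axis, linear below 1) against hours after activation in experiment 2, with naive libraries at 0 h in grey, the high starting concentration in red and the low one in blue; points are libraries and lines join group means. Anxa2 at 48 h shows the high concentration libraries above the low ones, and Lgals3 the reverse.

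Starting concentration separated the members into opposite groups. At 48 h, 3 of the 9 tested members were higher at the high than at the low concentration (Anxa2, Anxa6 and Lgals1) and 3 were lower (Lgals3, S100a4 and S100a6), where 25.9% of all genes tested were called. At 72 h, 1 was higher (Anxa2) and 4 were lower (Anxa6, Lgals3, S100a4 and S100a6), with 26.5% of all genes called. At 18 h Capg alone was called, lower at the high concentration, with 1.87% of all genes called, and at 30 h Lgals3 and Capg were lower, with 8.56%. The members' median log2 difference, high minus low, was 0.21 at 48 h and -0.23 at 72 h, against 0.04 and 0.01 over all genes tested.

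Anxa2, the annexin of the S100A10 complex, was at 226, 279 and 277 CPM in the high concentration libraries at 48 h and at 21.4, 17.3 and 21.3 in the low ones. At 30 h the libraries had been at 15.8, 20.7 and 19.1 and 14.4, 9.94 and 14.2, and at 72 h they reached 441, 539.5 and 454 against 129 and 129. The low concentration libraries at 48 h were near the 30 h levels, and at 72 h they remained below the high concentration libraries of 48 h. The log2 difference was 3.70 ± 0.19 at 48 h (13-fold, adjusted p = 2.16e-21) and 1.89 ± 0.19 at 72 h (3.71-fold, adjusted p = 7.6e-11), while at 18 and 30 h it did not pass (-0.75 ± 0.31 and 0.54 ± 0.24). The change of the difference from 18 to 48 h was itself called, at 4.45 ± 0.37 (adjusted p = 9.03e-13), as was its shrinkage from 48 to 72 h, at -1.81 ± 0.26 (adjusted p = 2.57e-06). For these 2 changes, 14% and 12.6% of all genes were called.

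Lgals3, which encodes the galectin with a self-associating tail, ran the other way and earlier. At 30 h it was at 1.44, 3.18 and 0.374 CPM at the high and 15.0, 7.73 and 13.3 at the low concentration. By 48 h these had become 9.24, 9.11 and 6.37 and 73.0, 106 and 102, and at 72 h 28.2, 29.3 and 20.3 and 80.7 and 108. No high concentration library overlapped a low one at any of the 3 times. Lgals3 was lower at the high concentration, with log2 differences of -2.79 ± 0.50 at 30 h (adjusted p = 0.000135), -3.53 ± 0.34 at 48 h (adjusted p = 8.85e-12) and -1.86 ± 0.32 at 72 h (adjusted p = 1.6e-05). At 18 h only 3 and 2 counts were found in the groups, both at or under the floor of 3 counts, so no ratio is given. The other galectin, Lgals1, was at 900.0, 850.0 and 823 CPM at the high and 564, 504 and 474 at the low concentration at 48 h. That difference was 0.74 ± 0.18 (adjusted p = 0.00128), in the opposite direction to Lgals3, and none was called at 72 h (-0.20 ± 0.19).

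The S100 genes did not move together. S100a4 was at 4.20, 4.25 and 2.28 CPM at the high and 26.1, 15.5 and 14.9 at the low concentration at 48 h, and at 3.91, 1.72 and 5.55 and 10.6 and 26.0 at 72 h. Neither pair of groups overlapped, with log2 differences of -2.43 ± 0.45 (adjusted p = 4.33e-05) and -2.29 ± 0.52 (adjusted p = 0.000801), the second of which was lost without replicate 2 of the low concentration at 72 h (adjusted p = 0.117). At 30 h the groups overlapped, at 15.8, 4.38 and 10.8 and 13.2, 8.84 and 11.1 CPM. S100a6 differed less, with log2 differences of -0.72 ± 0.23 at 48 h (adjusted p = 0.0167) and -0.58 ± 0.21 at 72 h (adjusted p = 0.0323), from libraries at 17.6, 20.0 and 19.6 against 24.5, 36.2 and 34.1 CPM and at 82.9, 93.8 and 98.0 against 141 and 133. The call at 48 h was lost without replicate 2 or replicate 3 of the low concentration (adjusted p = 0.074 and 0.0725), and that at 72 h without replicate 1 or 2 of the high (0.115 and 0.055) or of the low concentration (0.158 and 0.0974). S100a10, the partner of annexin A2, was called at none of the 4 times, and at 48 h its libraries were at 647, 691 and 751 CPM at the high and 559.9, 769 and 759.9 at the low concentration. Its log2 difference was 0.00 ± 0.13 at 48 h and 0.00 ± 0.14 at 72 h, with 95% intervals from -0.26 to 0.26 and from -0.29 to 0.29. At the early times, though not called, the S100a10 libraries of the high concentration lay above those of the low one. They were at 313 to 352 against 228 to 268 CPM at 18 h and 452 to 494 against 379 to 385 at 30 h. The 18 h difference passed when only the compared groups were fitted (adjusted p = 0.0251).

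Capg was the member that differed first. At 18 h it was at 102, 116 and 84.2 CPM at the high and 260.0, 295 and 267 at the low concentration, against 129.6, 172 and 185 in naive cells. The low concentration libraries lay above the naive range and the high ones below it. The difference of -1.44 ± 0.15 (adjusted p = 2.53e-09) was -0.51 ± 0.14 at 30 h (adjusted p = 0.0154), a call lost without replicate 3 of the high (0.105) or replicate 1 of the low concentration (0.0812), and was not called at 48 h (0.28 ± 0.14) or 72 h (-0.23 ± 0.15). From 18 to 48 h the difference moved by 1.73 ± 0.20 (adjusted p = 1.72e-08). S100a6 at 18 h had 12 counts at the high and 2 at the low concentration, a ratio of 4.71 (exact 95% interval of counting error 1.05 to 43.4), and its call on the change from 18 to 48 h (-2.85 ± 0.84, adjusted p = 0.0162) rests on those counts. It was lost without replicate 3 of the high (0.125), replicate 1 of the low (0.0759) or replicate 2 of the low concentration (0.0718) at 18 h.

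Anxa6 reversed between the late times, from 0.71 ± 0.17 at 48 h (adjusted p = 0.00119) to -0.61 ± 0.19 at 72 h (adjusted p = 0.0109), a change of -1.32 ± 0.25 (adjusted p = 0.000202). Its libraries were at 404, 337 and 263 CPM at the high and 193, 207 and 213 at the low concentration at 48 h. At 72 h, with 363, 286 and 402 against 575 and 495, the order was the opposite, without overlap at either time, and the 72 h call was lost without replicate 2 of the high (0.0722) or replicate 1 of the low concentration (0.135). Lgals1 changed in the same direction as Anxa6 from 48 to 72 h (-0.94 ± 0.26, adjusted p = 0.013), a call lost without replicate 1 (0.056) or 2 (0.0517) of the low concentration at 72 h. Lgals3 changed in the other direction, by 1.67 ± 0.48 (adjusted p = 0.0157, and 0.0951 without replicate 1 of the low concentration at 72 h). From 18 to 48 h the Lgals1 difference moved by 1.04 ± 0.29 (adjusted p = 0.0113, and 0.0617 without replicate 2 of the high concentration at 18 h). Anxa5, the annexin best known as a probe for exposed phosphatidylserine, was called at none of the 4 times, with log2 differences from -0.16 ± 0.18 to 0.24 ± 0.17.

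The number that closes each title in experiment 2 also went with concentration at the late times. All high libraries at 48 h carried 2 and 2 of the 3 low ones carried 1, and at 72 h all high libraries carried 1 and both low ones 2. With only the low library that shares the number at 48 h, the log2 differences of Anxa2, Lgals3 and S100a4 were 3.55, -3.22 and -2.96. Those of Anxa6, Lgals1 and S100a6 were 0.74, 0.55 and -0.41. The spread of a group cannot be estimated from 1 library, so no call is read from this fit. At 72 h no library of one concentration shares the other's number. With the number as a term in the fit across all groups, the Anxa6 call at 72 h was lost (0.121), as were the S100a6 call at 48 h (0.0924) and the changes from 48 to 72 h of Lgals1 (0.585) and Lgals3 (0.295). Beside these results, the summed level of 6 B cell markers was 19.6 to 30.2 CPM at the high and 47.4 to 54.1 at the low concentration at 48 h, and 14.8 to 16.4 and 26.3 to 32.4 at 72 h, with Cd79a, Ms4a1 and Pax5 at 0 in all 4 groups. The summed level of 12 myeloid markers overlapped, at 175 to 216 against 157 to 189.8 CPM at 48 h and 182 to 290.4 against 209 to 243 at 72 h. That of 7 regulatory T cell markers, all with counts in the 4 groups, was 1846 to 2144 CPM at the high and 1132 to 1139 at the low concentration at 48 h, without overlap. At 72 h it was 1302 to 1354 and 1240 to 1449. This list was also higher in activated than in naive cells, at 185 to 213 CPM in naive cells of experiment 2. At 18 h it was at 790 to 936 at the high and 988 to 1038 at the low concentration. Its sum is therefore not read as a share of regulatory T cells. The part of the RNA of these 3 lists in the members' differences was not tested.

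**Figure D2:**
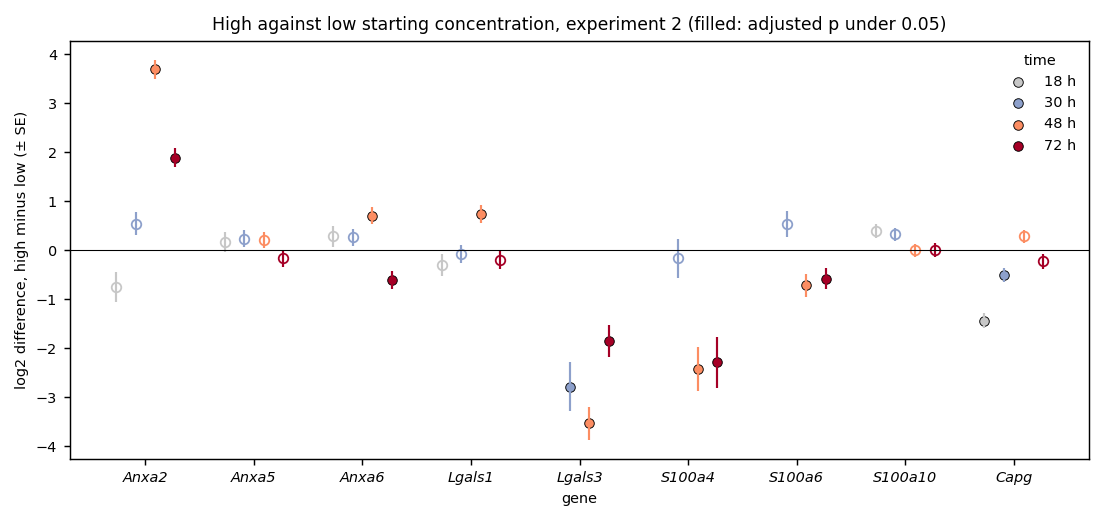
Log2 difference, high minus low starting concentration (± SE), of the 9 tested members at 18, 30, 48 and 72 h in experiment 2, filled where the adjusted p was under 0.05. Anxa2 stands above 0 at 48 and 72 h, Lgals3 below 0 at 30, 48 and 72 h, and S100a4, S100a6 and Lgals3 are not drawn at 18 h, where at least 1 group had 3 counts or fewer.

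In cells sorted by CD62L, from 5 of 9 to 9 of 10 members were higher at 72 than at 48 h. Their libraries were outside the unsorted contrast used to pick the set. The members were nevertheless chosen for a late rise and with earlier results of these data known, so these counts are not independent of the choice. Among CD62L negative cells, 9 of 10 were higher in experiment 1, where 19.8% of all genes were called higher, and 8 of 9 tested were higher and 1 (S100a4) lower in experiment 2, where 12.5% were called higher and 12% lower. Among CD62L positive cells, 7 of 10 were higher in experiment 1 and 5 of 9 in experiment 2, where 21.3% and 11.9% of all genes were called higher, and no member was lower. The members' median log2 difference was 1.55 and 0.95 in CD62L negative and 1.62 and 0.76 in CD62L positive cells of experiments 1 and 2, against 0.01 or 0.02 over all genes in each. Beside these results, markers of other cells were also higher at 72 than at 48 h in CD62L positive cells of experiment 1. The summed level of 16 lung and epithelial markers was 217 to 298 CPM at 48 h and 592 to 665 at 72 h. That of 11 myeloid markers was 142 to 157 and 290.2 to 309. In the CD62L negative cells of experiment 1 these were 171 to 444 and 98.1 to 348 for lung and epithelium. For the myeloid list they were 154 to 175 and 195 to 256. Their part in the members' levels was not tested.

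Anxa2 was at 37.8, 52.9 and 37.3 CPM at 48 h and 399, 408 and 354 at 72 h in CD62L negative cells of experiment 2, and at 31.1, 29.7 and 24.5 and 334, 288 and 327 in those of experiment 1. Its log2 difference ranged over the 4 comparisons from 2.59 ± 0.16 (CD62L positive, experiment 1) to 3.47 ± 0.16 (CD62L negative, experiment 1), and its largest adjusted p was 8.28e-15. In no comparison did the 48 and 72 h libraries overlap. Lgals1 rose by 1.54 ± 0.18 in CD62L positive and 1.96 ± 0.18 in CD62L negative cells of experiment 2 and by 1.90 ± 0.29 and 2.26 ± 0.27 in experiment 1, and S100a10 by 0.76 ± 0.13, 0.80 ± 0.13, 1.74 ± 0.16 and 1.40 ± 0.16. The adjusted p was at most 9.11e-06 for each of these 8. S100a6 was at 55.2, 45.5 and 47.0 CPM at 48 h and 279.7, 263 and 282 at 72 h in CD62L positive cells of experiment 2, a rise of 2.48 ± 0.19 (5.56-fold, adjusted p = 7.04e-14). In CD62L negative cells the rise was 1.08 ± 0.18 (adjusted p = 1.13e-05).

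Other members were called in some of the 4 comparisons. Capg was higher at 72 h by 0.83 ± 0.17 and 1.65 ± 0.16 in experiment 1 and by 0.95 ± 0.14 in CD62L negative cells of experiment 2, with adjusted p of at most 0.000143. It was not called in CD62L positive cells of experiment 2 (-0.03 ± 0.14), whose libraries were already at 683, 770.0 and 736 CPM at 48 h and were at 819, 659 and 672 at 72 h. Anxa5 and Anxa6 rose in both populations of experiment 1, by 0.77 ± 0.16 to 1.16 ± 0.15 and 0.81 ± 0.14 to 0.84 ± 0.15, and in CD62L negative cells of experiment 2, by 0.72 ± 0.16 and 0.96 ± 0.17, each with an adjusted p of at most 0.000353. In CD62L positive cells of experiment 2 neither was called (0.23 ± 0.16 and 0.36 ± 0.17), although Anxa6 passed when only the compared groups were fitted (adjusted p = 0.00104), and the difference between the 2 populations did not pass for either (-0.50 ± 0.22 and -0.60 ± 0.24). Lgals3 rose in both populations of experiment 2, by 1.86 ± 0.36 (adjusted p = 9.39e-05) in CD62L positive and 0.95 ± 0.30 (adjusted p = 0.0146) in CD62L negative cells, the second lost without CD62L negative replicate 2 at 48 h (0.0704) or replicate 1 at 72 h (0.062).

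S100a4 went in opposite directions in the CD62L negative cells of the 2 experiments. In experiment 2 it fell from 23.4, 30.8 and 43.9 CPM at 48 h to 10.6, 20.5 and 14.6 at 72 h (-1.09 ± 0.36, adjusted p = 0.02), and in experiment 1 it rose from 1.68, 0 and 3.07 to 5.71, 3.42 and 10.6 (1.90 ± 0.67, adjusted p = 0.026). Both calls were fragile. The fall was lost without replicate 3 at 48 h (0.125) or replicate 1 (0.116) or 3 (0.0623) at 72 h, and the rise without replicate 1 (0.064) or 2 (0.141) at 48 h or replicate 3 at 72 h (0.124). The low counts of experiment 1 also limit its other S100 and galectin-3 results: S100a6 rose by 1.69 ± 0.62 and 1.48 ± 0.54 with adjusted p of 0.0271 and 0.029. The first of these was lost without any 1 of 5 libraries, the 3 of 48 h or replicates 1 and 2 of 72 h (0.0528 to 0.254), and the second without replicate 2 or 3 of 48 h or 1 or 2 of 72 h (0.0683 to 0.172). Lgals3 in CD62L negative cells of experiment 1 rose by 1.61 ± 0.43 (adjusted p = 0.00365, and 0.181 without replicate 1 at 72 h), and in CD62L positive cells it had 10 counts at 72 h against 3 at 48 h, a ratio of 3.94 (exact 95% interval of counting error 1.01 to 22.3).

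**Figure D3:**
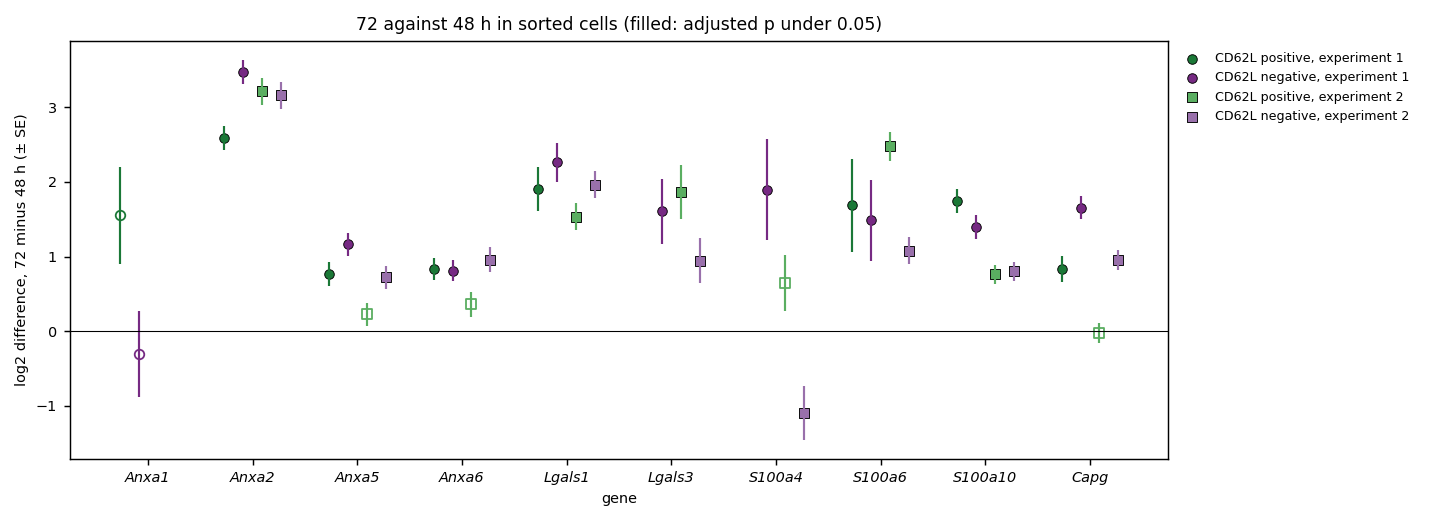
Log2 difference, 72 minus 48 h (± SE), of each member in CD62L positive and negative cells of both experiments, filled where the adjusted p was under 0.05; members with 3 counts or fewer in a group, and Anxa1 in experiment 2, are not drawn. Anxa2 is the highest of the filled points in each of the 4 comparisons, and S100a4 in CD62L negative cells of experiment 2 is the only filled point below 0.

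Between CD62L positive and negative cells of the same time, most calls on the members came at 48 h of experiment 2. There 3 of 9 tested members were higher in CD62L positive cells (Anxa6, Lgals1 and Capg) and 3 were lower (Lgals3, S100a4 and S100a6), with 14.5% of all genes called. At 72 h S100a6 alone was called, higher in CD62L positive cells, with 1.53% of all genes called. In experiment 1 Anxa2 alone was called at 48 h, higher in CD62L positive cells (6.51% of all genes), and Lgals3, S100a4 and Capg were lower in them at 72 h (19.5% of all genes). Beside the latter, marker sums in positive against negative cells were 592 to 665 against 98.1 to 348 CPM for lung and epithelium. They were 290.2 to 309 against 195 to 256 for myeloid cells and 83.8 to 109 against 38.0 to 61.6 for B cells. The regulatory T cell list was at 1953 to 1999 against 2641 to 2768. The part of these lists in the members' differences was not tested.

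Capg was at 683, 770.0 and 736 CPM in CD62L positive and 349, 369 and 415 in CD62L negative cells at 48 h of experiment 2, and at 819, 659 and 672 and 721, 723 and 749 at 72 h. The groups were apart at 48 h and overlapped at 72 h. The difference was 0.95 ± 0.14 at 48 h (adjusted p = 8.31e-07) and -0.03 ± 0.14 at 72 h, and its change of -0.98 ± 0.19 was called (adjusted p = 0.00158), where 1.3% of all genes were. In experiment 1 Capg was lower in CD62L positive cells at 72 h, with a log2 difference of -0.50 ± 0.15 (adjusted p = 0.0193, and 0.0767 without CD62L positive replicate 1), from 163, 224 and 178 against 263, 283 and 257 CPM. Its difference at 48 h there did not pass (0.32 ± 0.17). The change from 48 to 72 h in experiment 1 was -0.82. It did not pass (adjusted p = 0.0535), but it passed under 9 of 17 alternatives.

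S100a6 turned over between the times in experiment 2. At 48 h it was at 55.2, 45.5 and 47.0 CPM in CD62L positive and 102, 69.3 and 69.1 in CD62L negative cells, and at 72 h at 279.7, 263 and 282 and 158, 168 and 179. The positive libraries were thus all below the negative ones at 48 h and all above them at 72 h. The change of 1.40 ± 0.26 was called (adjusted p = 0.000995), and the differences behind it were -0.69 ± 0.20 (adjusted p = 0.0115) and 0.71 ± 0.18 (adjusted p = 0.0253). Each of those 2 was fragile: the first was lost without CD62L negative replicate 1 (0.108) or CD62L positive replicate 2 (0.0581) or 3 (0.0587), and the second without CD62L negative replicate 1 (0.131) or 2 (0.0986) or CD62L positive replicate 1 (0.0799), 2 (0.0703) or 3 (0.119). In experiment 1 the difference in S100a6 was 0.18 ± 0.73 at 48 h and 0.38 ± 0.47 at 72 h, on few counts.

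Where Lgals3 was called, it was lower in CD62L positive cells. At 48 h of experiment 2 it was at 8.63, 7.82 and 9.01 CPM against 30.6, 21.0 and 23.2 in CD62L negative cells, and at 72 h of experiment 1 at 3.82, 6.37 and 2.15 against 29.7, 8.90 and 13.3. Neither pair overlapped. The differences were -1.52 ± 0.36 (adjusted p = 0.0022) and -1.95 ± 0.53 (adjusted p = 0.00834, and 0.135 without CD62L negative replicate 1). At 72 h of experiment 2 it did not pass (-0.61 ± 0.30), and at 48 h of experiment 1 it had 3 counts against 22, a ratio of negative over positive of 4.99 (exact 95% interval of counting error 1.5 to 26.0).

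S100a4 in experiment 2 was lower in CD62L positive cells at 48 h, with a log2 difference of -1.27 ± 0.35 (adjusted p = 0.0102), from 8.63, 15.6 and 16.7 against 23.4, 30.8 and 43.9 CPM. The call was lost without CD62L negative replicate 3 (0.0849) or CD62L positive replicate 1 (0.102). In experiment 1 at 72 h it had 2 counts in CD62L positive and 27 in CD62L negative cells, a ratio of negative over positive of 6.82 (exact 95% interval of counting error 1.71 to 59.2). That call (adjusted p = 0.0403) was lost without CD62L negative replicate 1 (0.0526) or 3 (0.0981) or CD62L positive replicate 1 (0.151) or 2 (0.111). Anxa6 and Lgals1 were higher in CD62L positive cells at 48 h of experiment 2, by 0.63 ± 0.17 (adjusted p = 0.00698) and 0.61 ± 0.18 (adjusted p = 0.0147, lost without CD62L negative replicate 2, 0.124, or CD62L positive replicate 3, 0.0505). All 3 CD62L positive libraries of that time carried the closing title number 1, against 1 of 3 negative ones. With that 1 negative library alone, the log2 differences of Anxa6, Lgals3, S100a6 and Capg were 0.88, -1.84, -1.05 and 1.06. Those of Lgals1 and S100a4 were 0.70 and -0.79. The spread of a group cannot be estimated from 1 library, so no call is read from this fit.

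Anxa2 at 48 h of experiment 1 was at 38.0, 53.9 and 56.8 CPM in CD62L positive and 31.1, 29.7 and 24.5 in CD62L negative cells, without overlap. The difference was 0.80 ± 0.20 (adjusted p = 0.0102), and it was lost without CD62L negative replicate 3 (0.0701) or CD62L positive replicate 3 (0.101). At 72 h the value was -0.08 ± 0.13. The change of -0.88 ± 0.24 passed narrowly (adjusted p = 0.0473, with 1.89% of all genes called) and was lost without any 1 of 7 libraries: CD62L negative replicate 1, 2 or 3 or CD62L positive replicate 2 or 3 at 48 h, or CD62L negative replicate 1 or CD62L positive replicate 2 at 72 h (adjusted p from 0.05 to 0.132). In experiment 2 the Anxa2 difference was 0.23 ± 0.19 at 48 h and 0.29 ± 0.16 at 72 h, neither of which passed. Anxa5 and S100a10 were called in neither experiment at either time, but at 48 h Anxa5 passed without CD62L positive replicate 1 in experiment 1 (0.0419) and, like S100a10, without CD62L negative replicate 1 in experiment 2 (0.0388 and 0.0174).

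**Figure D4:**
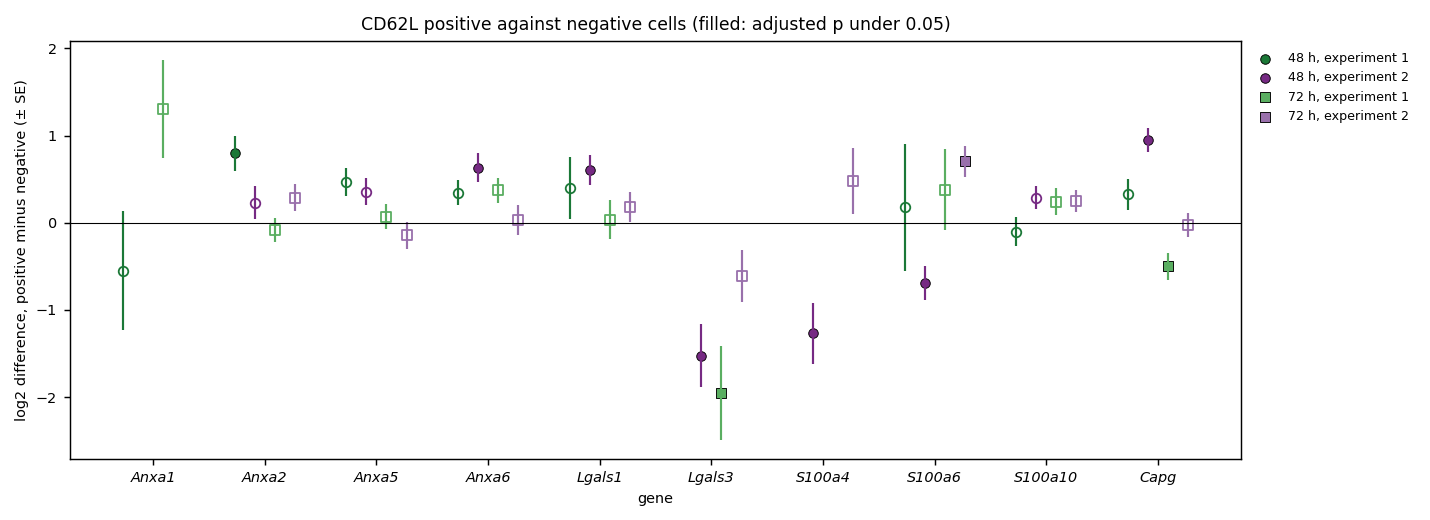
Log2 difference, CD62L positive minus negative (± SE), of each member at 48 and 72 h in both experiments, filled where the adjusted p was under 0.05; members with 3 counts or fewer in a group, and Anxa1 in experiment 2, are not drawn. Lgals3 points lie below 0, and S100a6 of experiment 2 stands below 0 at 48 h and above 0 at 72 h.

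Against naive cells, the activated sorted cells of 48 h gave opposite results in the 2 experiments. In experiment 1, 8 of 10 members were lower than in naive cells and none higher, with 31.8% of all genes called lower. In experiment 2, 7 of 9 tested members were higher and 1 (Anxa6) lower, with 33.3% of all genes called higher and 33% lower. Of 6 members called in both, 5 differed in sign (Anxa2, Lgals3, S100a4, S100a6 and S100a10) and only Anxa6 had the same sign. These 5 do not rest on equal counts. The naive libraries of experiment 1 held 207 counts of Anxa2, 342 of S100a10, 36 of S100a4, 10 of Lgals3 and 8 of S100a6. Replicate 1 of that group held 58750 counts over all genes. The difference between experiments was not tested, since the tables were fitted apart.

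Anxa2 was at 326, 331 and 336 CPM in naive cells of experiment 1 and at 31.1, 29.7 and 24.5 in CD62L negative cells at 48 h, with a log2 difference of -3.14 ± 0.16 over both sorted populations (adjusted p = 3.21e-18). In experiment 2 it was at 11.6, 5.60 and 12.2 in naive cells and at 37.8, 52.9 and 37.3 in CD62L negative cells at 48 h, a rise of 2.25 ± 0.22 (adjusted p = 5.21e-13). S100a4 had 15.5, 93.4 and 40.4 CPM in naive cells of experiment 1, and was lower at 48 h, with a log2 difference of -5.52 ± 0.58 (adjusted p = 8.01e-10). In naive cells of experiment 2 it had 2 counts in all, and 299 in the 6 sorted libraries of 48 h, a ratio of 59.9 (exact 95% interval of counting error 16.4 to 496). S100a6 was at least 106-fold higher at 48 h than in the naive cells of experiment 2 (795 counts against 0, over a floor of 3 counts for the group), and in experiment 1 it was lower, with a log2 difference of -2.27 ± 0.72 (adjusted p = 0.00664, and 0.146 without naive replicate 3). Lgals3 gave -2.54 ± 0.78 (adjusted p = 0.00556, and 0.15 without naive replicate 2) and 2.20 ± 0.43 (adjusted p = 1.78e-05), and S100a10 gave -0.99 ± 0.16 and 1.24 ± 0.12 in experiments 1 and 2. Anxa1, known for its anti-inflammatory action and abundant in myeloid cells, was lower in experiment 1, with a log2 difference of -4.00 ± 0.46 (adjusted p = 3.09e-09), from 46.6, 29.7 and 46.6 CPM.

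The naive libraries of experiment 1 also carried RNA typical of other cells. The summed level of 11 myeloid markers was 1723 to 2674 CPM there, 846 to 943 in the mature cells, and from 142 to 175 in the sorted cells of 48 h. That of 6 B cell markers was 4005 to 5712, 2604 to 2916 and 47.5 to 75.9, and that of 16 lung and epithelial markers 1744 to 3772, 319 to 542 and 171 to 444. All 11 myeloid markers in the table had counts in the naive cells of experiment 1, with none at 0. In the sorted naive cells of experiment 2 these sums were 223 to 309.8, 3.73 to 10.0 and 27.8 to 40.9 CPM, with Cd14, Adgre1 and Clec7a at 0. The part of such RNA in the members' levels was not tested, and the way the cells were obtained (MACS enrichment or sorting) cannot be told apart from the experiment.

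**Figure D5:**
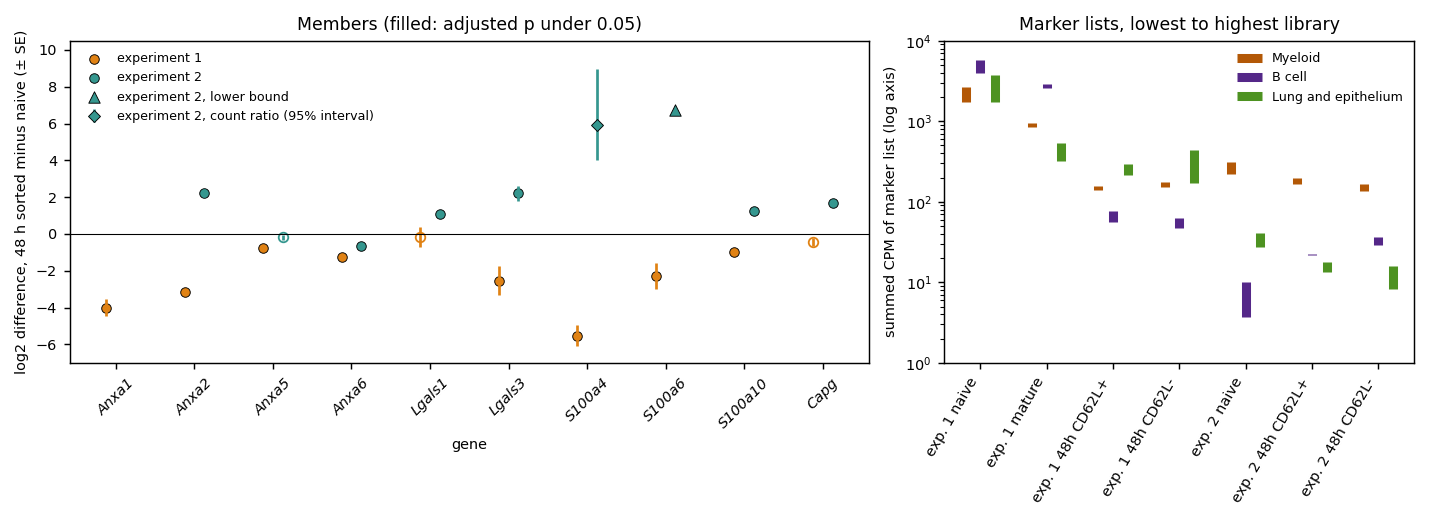
Left, log2 difference of sorted cells at 48 h minus naive cells (± SE) for each member in experiments 1 and 2, filled where the adjusted p was under 0.05, with a count ratio for S100a4 and a lower bound for S100a6 in experiment 2; right, the lowest to highest summed CPM (log axis) of 3 marker lists by group. The 5 members called with opposite signs lie below 0 in experiment 1 and above 0 in experiment 2, and the marker sums are highest in the naive cells of experiment 1.

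Mature and naive cells of experiment 1 differed in no member in edgeR's test, where 16.4% of all genes were called, nor with DESeq2 (0 of 10 with either), while 2 (Anxa1 and S100a4) had an unadjusted p under 0.05. The nearest was S100a4, at 113, 124 and 104 CPM in mature and 15.5, 93.4 and 40.4 in naive cells (0.98 ± 0.36, adjusted p = 0.061), which passed without naive replicate 2 (0.0171). In that naive group replicate 1 had 58750 counts in all. CD62L negative cells at 72 h, which share the CD62L phenotype of mature cells, had higher Capg (1.44 ± 0.17, adjusted p = 1.15e-08) and Lgals1 (1.04 ± 0.28, adjusted p = 0.00199) than mature cells and lower S100a4 (-4.15 ± 0.35), Anxa1 (-3.10 ± 0.45), S100a6 (-1.92 ± 0.40) and Anxa6 (-0.38 ± 0.14), 6 of 10 members where 48.7% of all genes were called. The Anxa6 call (adjusted p = 0.0293) was lost without CD62L negative replicate 1 (0.151) or 2 (0.128) or mature replicate 1 (0.0714) or 2 (0.11). Anxa2 was at 334, 288 and 327 CPM in these cells and 302, 375 and 372 in mature cells, with overlapping ranges (-0.15 ± 0.13). Beside this comparison, the summed level of 6 B cell markers was 2604 to 2916 CPM in mature and 38.0 to 61.6 in the CD62L negative cells. That of 11 myeloid markers was 846 to 943 and 195 to 256, and that of 7 CD8 T cell and natural killer cell markers 396 to 437 and 39.0 to 44.6. Their part in the members' differences was not tested.

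Levels at 18 h against naive cells of experiment 2 are given as a description, without a test, because the 18 h libraries belong to the contrast by which the set was picked. Of the 9 tested members 5 were past the threshold below naive cells and 1 above, with 65.9% of all genes past it, and nothing is read from that count. The log2 difference was -2.64 for Anxa6, -2.41 for Lgals1, -1.80 for Anxa5 and -0.60 for S100a10, and it was 0.49 for Anxa2 and 0.03 for Capg. Lgals3 had 15 counts in the naive libraries and 3 and 2 at 18 h at the high and the low concentration. S100a6 had 14 counts at 18 h and 0 in naive cells, at least 3.57-fold higher over a floor of 3 counts for the group.

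Relatives outside the set gave a mixed picture, read beside the 25.9% and 26.5% of all genes called between concentrations at 48 and 72 h. Of the 4 annexin A2 and S100A10 partners listed (Ahnak, Ahnak2, Dysf and Myof) only Ahnak was tested in experiment 2, and it was higher at the high concentration at 48 h (0.80 ± 0.30, adjusted p = 0.041) and 72 h (1.95 ± 0.32, adjusted p = 7.07e-06). Ahnak also rose from 48 to 72 h in both sorted populations of experiment 2, by 3.09 ± 0.35 in CD62L positive and 1.40 ± 0.28 in CD62L negative cells. Among 15 other S100 genes, 4 were tested in experiment 2, of which 2 were higher at the high concentration at 48 h and 1 was lower at 72 h. S100a13, which takes part in secretion without a signal peptide, was the one that turned: 1.09 ± 0.17 at 48 h (adjusted p = 1.03e-06) and -0.96 ± 0.18 at 72 h (adjusted p = 4.94e-05). Of 7 genes of the gelsolin family, to which Capg belongs, 4 were tested, with 3 higher at 48 h and 2 higher and 1 lower at 72 h. Gsn, gelsolin itself, was higher by 2.72 ± 0.58 and 2.41 ± 0.45 (adjusted p = 0.000313 and 6.39e-05). Of 9 other galectin genes 5 were tested, and 2 were higher at each of the 2 times, among them Lgals7 (adjusted p = 0.019 at 48 h and 0.00276 at 72 h, where the log2 difference was 1.93 ± 0.50). Of 8 other annexin genes 2 were tested and neither was called. High concentration libraries carried the closing title number 2 at 48 h and 1 at 72 h, and most or all low ones the other number. The part of that number in the relatives' concentration differences, among them the turn of S100a13, was not tested.

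Ordered by level over the 13 groups of experiment 2, 7 of the 12 neighbouring pairs of groups did not overlap for S100a6. Anxa2, Lgals1 and S100a10 separated 6, Capg 5, Anxa6 and Lgals3 4, Anxa5 2, S100a4 1 and Anxa1 none. The same count over all genes was not made, and nothing is read from these. The top of the order differed between members. Anxa2 was highest in unsorted cells at 72 h and high concentration (478 ± 53.4 CPM), overlapping CD62L positive cells at 72 h. Lgals3 was highest at the low concentration at 72 and 48 h (94.3 ± 19.3 and 93.6 ± 18.0 CPM), which overlapped, and S100a6 in CD62L positive cells at 72 h (275 ± 10.7 CPM), which overlapped no other group. Between members, the correlation of group means over the 13 groups ran from 0.371 for Anxa2 with S100a4 to 0.951 for Anxa5 with Anxa6, as a description across groups that share libraries and a time course. Anxa2 with its partner S100a10 gave 0.838 and the neighbours S100a4 and S100a6 gave 0.826. Outside the set, the gene most like each member by this measure was Mzt1 for Anxa2 (r = 0.977), Tnfaip8l2 for Anxa5 (0.972), Gnai2 for Anxa6 (0.992), Vim for Lgals1 (0.981), Lpxn for Lgals3 (0.936), Ifi30 for S100a4 (0.92), Rtn3 for S100a6 (0.976), Il18rap for S100a10 (0.965) and Drc1 for Capg (0.955). Over the 6 groups of experiment 1 the same pairs gave -0.258, 0.96, 0.982, 0.811, 0.727, 0.904, -0.623, 0.599 and 0.673, so the likeness to Mzt1 and Rtn3 was seen in experiment 2 and not in experiment 1. Tspan17 and Plin3 followed Mzt1 for Anxa2, with r of 0.957 and 0.955 in experiment 2 and 0.994 and 0.966 in experiment 1.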

How the data were processed

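Messenger RNA of 18 (experiment 1) and 38 (experiment 2) libraries was captured on oligo(dT), reverse transcribed with indexed poly(T) primers carrying molecular identifiers and amplified by in vitro transcription, per the labels' protocols, so reads come from the 3' end and counts of different genes are not length scaled. The authors deposited whole-number counts per gene symbol, 1 table per experiment, and these were used as deposited. Build mm9 and the tools HTSeq (0.9.1), STAR (2.5.2b) and HISAT (0.1.5) appear in the submitters' processing notes, together with FastQC (0.11.7) and bcl2fastq (2.17.1.14). The sources used here do not say which aligner made which table, or whether identifiers were collapsed. Intervals and floors cover counting error only.

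Groups follow the labels. Within each table, all groups entered one edgeR 4.0.16 quasi-likelihood fit (R 4.3.3) with TMM scaling and filterByExpr (minimum count 10), which kept 8961 genes in experiment 1 and 9239 in experiment 2. In all, 21 comparisons were made, with Benjamini-Hochberg adjustment over all genes tested within each. The fit was run on simulated data that gave all genes and groups a common spread. Here, pairs of libraries within a group had a chi-square per degree of freedom from 1.28 to 15. The simulation therefore does not show the error rate of the fit in these data. Low concentration at 72 h had 2 libraries. Alternatives were DESeq2 (version 1.42.0), its size factors in edgeR, no filter, a replicate block, the compared groups alone, the closing title number as a term, and each library left out; matching that number at 48 h was added after seeing the data.

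The members and lists were chosen with earlier results of these data known. The genes named are the 10 members, at most 2 genes per related list and comparison with the smallest adjusted p, and the genes most like each member by correlation of group mean log2 CPM (prior count 2). Promoters came from a RefSeq table of build GRCm38.p6, which is not the build of the counts, and no coordinate of the counts was used.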

Additional observations from a re-analysis of the deposited data

Results flagged for a closer look

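A test of the difference between 2 effects singled out the following changes with time. For the high minus low concentration difference from 18 to 48 h they were Anxa2 (4.45), Lgals1 (1.04), S100a6 (-2.85) and Capg (1.73), and from 48 to 72 h Anxa2 (-1.81), Anxa6 (-1.32), Lgals1 (-0.94) and Lgals3 (1.67), all on the log2 scale. For the CD62L positive minus negative difference from 48 to 72 h they were S100a6 (1.40) and Capg (-0.98) in experiment 2 and Anxa2 (-0.88) in experiment 1.

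In 3 cases every library of one experiment moved against the other experiment, and the difference between experiments was not tested. Sorted cells at 48 h against naive cells gave -3.14 for Anxa2 in experiment 1 and 2.25 in experiment 2, and -5.52 and 5.41 for S100a4, where the last value rests on 2 counts in naive cells. From 48 to 72 h in CD62L negative cells S100a4 gave 1.90 in experiment 1 and -1.09 in experiment 2.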

How the results depend on the processing

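Of 94 calls on members, 64 held under every alternative that tested them and 30 were lost under at least 1. Of the uncalled results 15 passed under at least 1, and none reversed. With the compared groups alone only 167 of 197 member results were tested, and a call not tested there counts as held. The counts include the matched title number, a fit with 1 library in a group. They also take in the comparison of 18 h with naive cells of experiment 2, with 6 of the 94 calls. That comparison is a description only, and nothing is read from its calls or their losses. Losses in that comparison, with the number matched, or given with the results are not listed here. Calls were lost without the filter for S100a6 high minus low at 72 h (adjusted p = 0.0568), Capg at 30 h (0.0623) and Anxa6 against mature cells (0.059). They were lost with DESeq2 for S100a6 from 48 to 72 h in both populations of experiment 1 (0.0563 and 0.064) and S100a4 by CD62L at 72 h of experiment 1 (0.0514). With the compared groups alone they were lost for S100a6 at 48 h (0.0618) and the Anxa2 CD62L change of experiment 1 (0.0586), and with the title number as a term for S100a4 by CD62L at 48 h (0.154) and over time in CD62L negative cells (0.0698) of experiment 2.

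Members called changed as follows. The CD62L change of experiment 1 gave 2 instead of 1 with DESeq2 size factors, no filter or DESeq2. With the compared groups alone, CD62L at 72 h of experiment 1 gave 1 instead of 3, mature minus naive 1 instead of 0 (also 1 without the filter), and high minus low at 18 h 2 instead of 1. In the first of these, Lgals3 and S100a4 did not pass the filter on low counts and were not tested. High minus low gave 1 instead of 2 at 30 h without the filter, and its change from 48 to 72 h gave 2 instead of 4 with the number as a term. With 1 library left out, the ranges were 0 to 2 (CD62L change of experiment 1), 0 to 2 (CD62L at 48 h of experiment 1), 1 to 3 (at 72 h), 0 to 1 (mature minus naive), 0 to 1 (CD62L at 72 h of experiment 2), 2 to 4 (concentration change from 48 to 72 h), 1 to 2 (high minus low at 30 h) and 3 to 5 (at 72 h).

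Genes called of all tested moved too. With the compared groups alone they were 1483 instead of 2269 (72 minus 48 h, CD62L negative, experiment 2), 231 instead of 141 (CD62L at 72 h of experiment 2, 229 with DESeq2), 455 instead of 173 (high minus low at 18 h) and 1488 instead of 2397 (at 48 h). The number as a term gave 844 instead of 1341 (CD62L at 48 h of experiment 2), 296 instead of 1161 (concentration change from 48 to 72 h) and 1531 instead of 2447 (high minus low at 72 h), and the number matched gave 516 for the first and 917 for high minus low at 48 h. The CD62L change of experiment 1 gave 279 without the filter and 255 with DESeq2 instead of 169. With 1 library left out, genes called ranged from 79 to 256 (CD62L change of experiment 1), 385 to 569 (CD62L at 48 h of experiment 1), 771 to 1447 (mature minus naive), 818 to 1480 and 50 to 119 (CD62L at 48 and 72 h of experiment 2), 556 to 1512 (concentration change from 48 to 72 h), and 94 to 154, 470 to 594 and 1421 to 2226 (high minus low at 18, 30 and 72 h). Causes were not tested, beyond the smaller number of libraries. Between libraries with the same replicate number, the median correlation of deviations was -0.0121 in experiment 1 and 0.00193 in experiment 2. The values ran from -0.294 to 0.398 and from -0.446 to 0.49. For different replicate numbers they ran from -0.32 to 0.365 and from -0.424 to 0.401. These pairs were taken over all groups of an experiment. Pairing of CD62L positive with CD62L negative libraries of the same time was not tested. A replicate block changed 2 of 197 results: the Anxa2 CD62L change of experiment 1 was lost (adjusted p = 0.0569) and that of Capg passed (0.0478). Depth limits Anxa1 in experiment 2 and Anxa1, Lgals3, S100a4 and S100a6 in experiment 1.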
